A study of Homo sapiens with 18 samples.

Results

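The aminoacyl-tRNA synthetase genes were taken as every row of the expression table whose symbol was a single letter followed by ARS, ARS1 or ARS2, together with EPRS, FARSA, FARSB, TARSL2, AIMP1, AIMP2 and EEF1E1. This gave 41 genes of 26372 in the table, 34 by the pattern of the symbol and 7 by name. They comprise 21 enzymes of the cytosol, 17 enzymes of the mitochondrion and 3 scaffold proteins. All 41 had values above 0 in every library and passed the filter on low values, a mean of at least 1 FPKM (fragments counted per length of transcript and per size of the library), which 13785 genes passed.

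Aminoacyl-tRNA synthetases attach each amino acid to its matching tRNA and so supply the ribosome with its substrates. Nuclear genes encode a cytosolic set and a separate mitochondrial set, while GARS and KARS serve both compartments from 1 gene each. In the cytosol 8 of the enzymes (DARS, EPRS, IARS, KARS, LARS, MARS, QARS and RARS, with EPRS carrying both glutamyl and prolyl activities) are held in the multi-synthetase complex by the scaffolds AIMP1, AIMP2 and EEF1E1. Many cytosolic members are targets of ATF4, the transcription factor of the amino acid response. Dominant variants of GARS, YARS, AARS and HARS cause inherited peripheral neuropathy, and recessive variants of several mitochondrial members, RARS2 among them, cause disorders of the brain.

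The libraries came from SH-SY5Y, an established human neuroblastoma line that can be turned into neuron-like cells. All cells carried a lentiviral ZNHIT3 construct made from the FUGW plasmid: ZNHIT3-WT, ZNHIT3-C14R or a deletion, ZNHIT3-∆251-254. The deletion libraries are labelled as ending at position 254, 255 or 256 in replicates 1, 2 and 3, while the design names 254 alone, and they were kept as 1 group. ZNHIT3 is an assembly factor of the small nucleolar ribonucleoproteins. The titles of the deletion libraries read Depleted, and whether this means more than the deletion construct is not clear from them. Otherwise the labels name no removal of the endogenous gene and no group without a construct. Each construct was sampled on day 0 and on day 18 of differentiation. The line was kept in medium with serum and differentiated in serum-free medium with BDNF, KCl, dibutyryl cyclic AMP and all-trans retinoic acid, and there were 3 libraries in each of 6 groups. Time, medium and agents changed together and cannot be told apart. The labels do not say that replicates were separate cultures or clones, so p-values measure the spread between these libraries, which may be technical.

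Depth could be read in relative terms only. Day 0 libraries had an estimated 59.05% to 84.7% and day 18 libraries 81.5% to 100% of the depth of the deepest library. The estimate was the commonest ratio of low FPKM values to those of 1 reference library. In the other libraries only 10.3% to 17.9% of the low genes used lay at that ratio. The upper quartile of FPKM lay between 10.9 and 11.3 in all 18 libraries, whereas SNORD3A, a small nucleolar RNA, made up 51.5% to 58.6% of the FPKM sum in 4 of the 9 day 0 libraries. ZNHIT3, in which construct and endogenous reads are counted together, ranged from 292 to 542 FPKM on day 0 and from 294.3 to 1193 on day 18, with the WT groups highest on both days. Replicate 1 of C14R on day 18 stood apart. Among the 9 libraries of its day it held the highest or lowest value for 20 of the 41 synthetase genes, against 4 to 12 for the other 8 libraries.

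At day 0 the levels of the members spanned a wide range. In WT libraries the highest mean was that of KARS, lysyl-tRNA synthetase, with 101.9 ± 4.59 FPKM (SD, n = 3), followed by NARS, the asparaginyl enzyme, with 88.0 ± 1.65, and LARS, the leucyl enzyme, with 79.9 ± 1.69. These 3 did not overlap each other or the fourth, RARS. The lowest was WARS2, mitochondrial tryptophanyl-tRNA synthetase, with 4.01 ± 0.441 FPKM. Over the 41 genes ordered by mean, 22 of 40 neighbouring pairs overlapped between their WT libraries and 18 did not. KARS, NARS, LARS, RARS and GARS held the first 5 places in the same order in all 3 lines on day 0. The highest mitochondrial member was IARS2, isoleucyl-tRNA synthetase, with 65.3 ± 1.47 FPKM, above most cytosolic members.

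By day 18 most synthetase genes were lower. In WT libraries 28 of 41 fell and 4 rose at an adjusted p (limma) under 0.05, where 34.0% of all genes tested fell and 38.2% rose. Thus 32 members passed in either direction, against 72.2% of all genes. The members had a median log2 change of -0.39, the genes tested as a whole one of 0.03. In C14R libraries 30 fell and 5 rose (all genes 35.0% and 37.9%, together 72.9%), and in deletion libraries 30 fell and 3 rose (all genes 34.4% and 38.6%, together 73.0%). The median change was -0.39 in C14R and -0.40 in deletion libraries. In WT, 30 members had all day 18 libraries below all day 0 libraries, as 36.0% of all genes did, and 4 had them all above, as 39.7% did. In C14R these numbers were 29 and 5 (all genes 34.5% and 37.3%), and in deletion libraries 29 and 5 (36.8% and 40.9%).

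Most members did the same in each line. A set of 27 fell in all 3 lines, against 29.7% of all genes tested, and 3 rose in all 3 lines (AARS, WARS and RARS2), against 33.3%. LARS2, NARS2 and VARS2 passed in none. CARS rose in WT alone, TARSL2 and PARS2 in C14R alone. MARS and AIMP2 fell in C14R and deletion libraries, TARS2 in WT, WARS2 in C14R and FARS2 in deletion libraries. PARS2 and WARS2 are among the lowest members, with C14R means of 3.94 and 4.93 FPKM for PARS2 and 4.30 and 3.37 for WARS2 on days 0 and 18, and the WARS2 libraries of the 2 days overlapped. None of these differences between lines passed as an interaction, so they are not shown to differ. Without the 4 libraries rich in SNORD3A, 26 members fell and 4 rose in WT, 29 and 2 in C14R, and 28 and 3 in deletion libraries. The count of 5 rises in C14R became 3 without replicate 1 or without replicate 3 of day 0, and the 3 rises in deletion libraries became 5 without deletion replicate 3 or C14R replicate 1 of day 18.

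**Figure D1:**
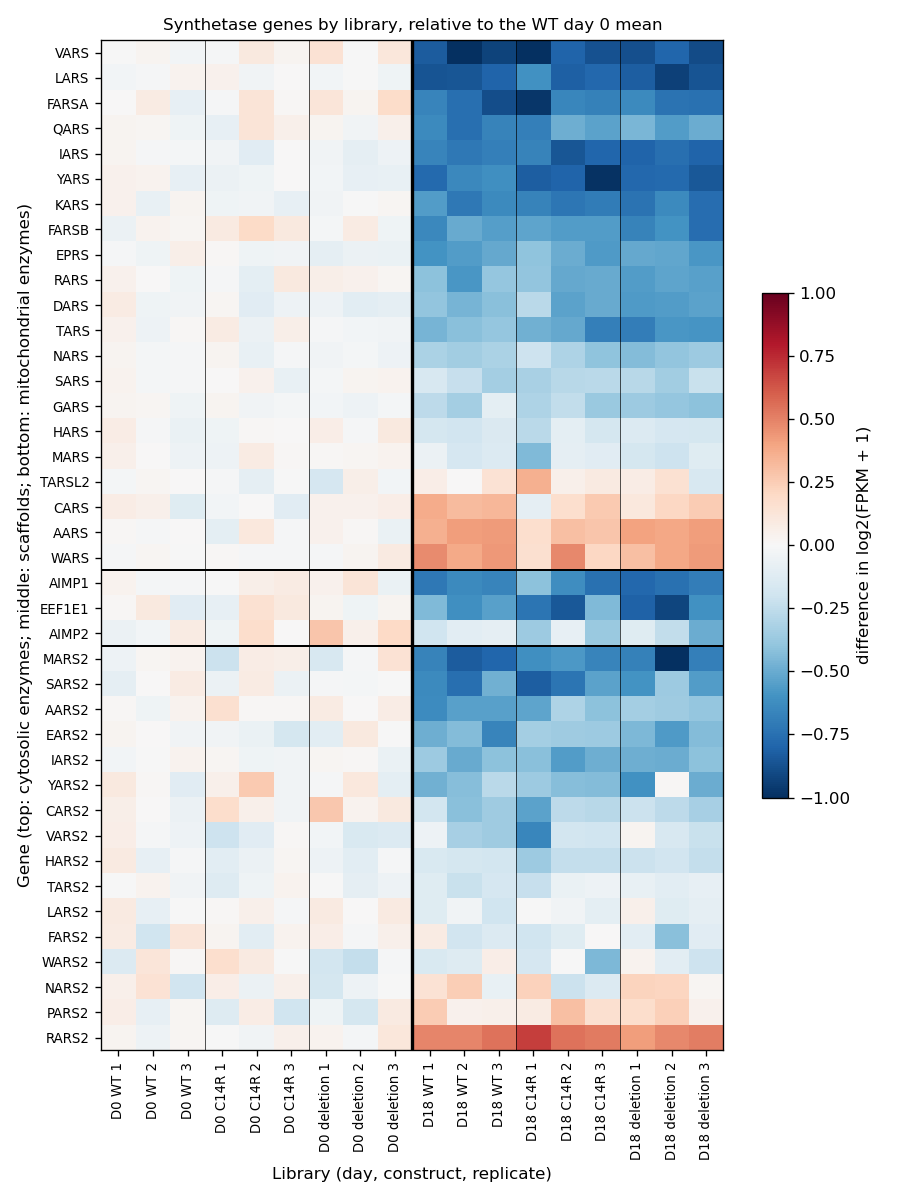
Difference of 40 synthetase genes (rows) in each of the 18 libraries (columns) from their means in the WT day 0 libraries, in units of log2(FPKM + 1), with lines between cytosolic enzymes, scaffolds and mitochondrial enzymes. Day 18 columns are mostly blue (lower) with AARS, WARS and RARS2 red (higher), and CARS red except in replicate 1 of C14R.

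How many members fell depended on how libraries were scaled. When small RNA genes were left out and libraries rescaled to 1 sum, the median of all genes (log2 change, WT) moved from 0.03 to 0.21, and the share of rises among all genes called moved from 52.9% to 68.6%. The shares moved from 52.0% to 66.4% in C14R and from 52.8% to 69.5% in deletion libraries. Members then fell and rose in numbers of 21 and 7 in WT, 21 and 6 in C14R, and 24 and 8 in deletion libraries. Relative to the median of all genes, the member median was -0.42 in WT as deposited and -0.42 after this rescaling. It could hardly move, since the rescaling multiplies all genes of a library by the same factor. Against that median, 34 members in WT were lower under each of the 4 scalings tried, and 7 higher. Only quantile normalization among these does more than apply a factor to each library, so the count is no check on the other scalings. The members that fell under all 4 scalings numbered 21 in WT, 21 in C14R and 24 in the deletion line, and those that rose 4, 4 and 3.

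**Figure D2:**
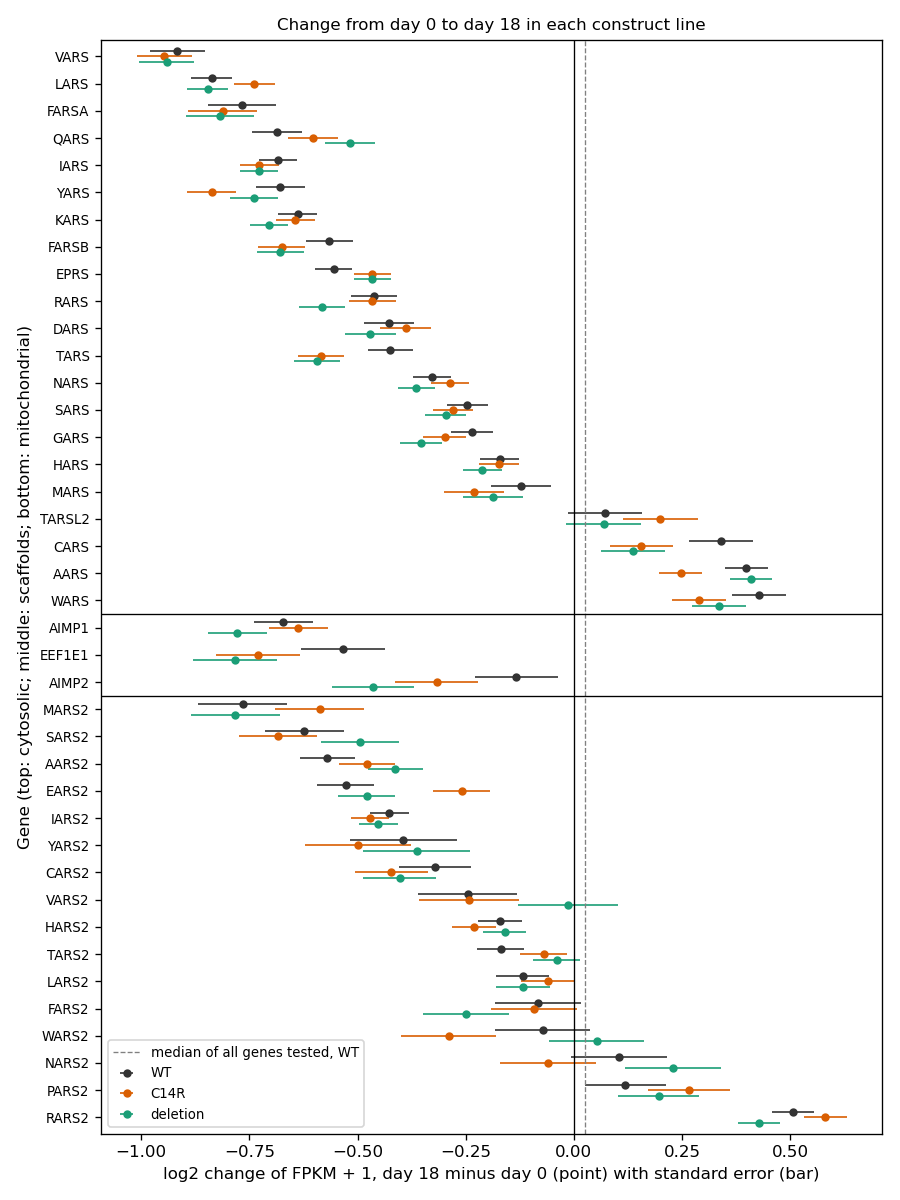
Change from day 0 to day 18 of 40 synthetase genes in WT (black), C14R (orange) and deletion (green) libraries as difference in log2(FPKM + 1), with bars for the standard error of limma and a dashed line for the median of all genes in WT. VARS lies lowest at -0.92 in WT and RARS2 highest at 0.51.

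Nearly all enzymes of the multi-synthetase complex fell. Of 8 enzymes 7 fell in WT and all 8 in both variant lines, with a median log2 change of -0.60 in WT. LARS had 78.6, 79.4 and 81.8 FPKM in WT libraries on day 0 and 43.6, 43.8 and 45.6 on day 18. Its C14R libraries went from 82.4, 78.1 and 80.1 to 52.1, 45.1 and 46.1 FPKM, and its deletion libraries from 78.4, 79.7 and 77.4 to 44.7, 41.5 and 43.5. Day 0 and day 18 did not overlap in any line, and LARS went from place 3 among the members on day 0 in WT to place 10 on day 18. Place 10 is not resolved, since the libraries overlapped those of EPRS and SARS. In C14R on day 18 LARS held place 6. Its log2 change in WT was -0.84 (SE 0.05, adjusted p = 4e-11), a 0.560-fold level on the scale of FPKM + 1.

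QARS, the glutaminyl enzyme, and IARS, the isoleucyl enzyme, fell by 0.69 and 0.68 on the log2 scale in WT (SE 0.06 and 0.04). KARS had 105, 96.7 and 104 FPKM on day 0 and 68.8, 61.6 and 65.0 on day 18 in WT, without overlap (log2 change -0.64, SE 0.0448, adjusted p = 7.9e-10). It lost first place to NARS, which lies outside the complex, in all 3 lines, with overlap of their libraries in the deletion line. EPRS, RARS and DARS had log2 changes of -0.55, -0.46 and -0.43 in WT, each past the threshold.

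MARS, methionyl-tRNA synthetase, was the exception among the complex enzymes. Its WT libraries had 53.5, 51.8 and 49.7 FPKM on day 0 and 49.4, 45.9 and 46.8 on day 18. The days did not overlap, but the log2 change of -0.12 (SE 0.07, adjusted p = 0.12) did not pass. In C14R the change was -0.23 (adjusted p = 0.0061) and in deletion libraries -0.19 (adjusted p = 0.021). Exons of MARS share 355 bases with DDIT3 and 519 with ARHGAP9, both on the opposite strand, and whether the counting used strand is not given in the sources used here. DDIT3, a stress-induced transcription factor, rose by 1.39 in WT (SE 0.09, adjusted p = 1.7e-10), from 7.21 to 8.20 FPKM on day 0 to between 20.2 and 24.8 on day 18. Its part in the MARS values was not tested.

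Of the 3 scaffolds 2 fell in WT and all 3 in each variant line, where 34.0% to 35.0% of all genes fell. AIMP1, which binds part of the complex, had 25.8, 24.8 and 25.0 FPKM on day 0 and 15.0, 15.9 and 15.5 on day 18 in WT (log2 change -0.67, SE 0.07, adjusted p = 1e-07). EEF1E1 fell by 0.53 (SE 0.10, adjusted p = 9.3e-05) in WT, by 0.73 in C14R and by 0.78 in deletion libraries. AIMP2, the core scaffold on which the complex is assembled, had a log2 change of -0.13 in WT (SE 0.10, adjusted p = 0.22), and it fell by 0.32 in C14R and 0.46 in deletion libraries. Exons of AIMP2 share 532 bases with EIF2AK1 and those of AIMP1 387 with TBCK, both on the opposite strand, and those of EEF1E1 share 393 with the read-through gene EEF1E1-BLOC1S5, so all 3 values are uncertain. Summed over the 3 scaffolds, WT libraries went from 66.0 ± 1.01 to 47.0 ± 0.366 FPKM (SD, n = 3).

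Among the 13 cytosolic enzymes outside the complex, 9 fell and 3 rose in WT, with a median log2 change of -0.25. Of all genes tested, 34.0% fell and 38.2% rose there. VARS, valyl-tRNA synthetase (GRCh38, chromosome 6, 31777518 to 31795953, minus strand), fell most of all members. It had 24.3, 24.8 and 23.9 FPKM on day 0 and 13.3, 11.7 and 12.3 on day 18 in WT. In C14R its values were 24.2, 26.2 and 24.8 and then 11.2, 13.6 and 12.9 FPKM, and in deletion libraries 27.0, 24.3 and 26.5 and then 12.8, 13.7 and 12.6. No day 18 library of any line reached a day 0 library. The log2 change in WT was -0.92 (SE 0.06, adjusted p = 6.6e-10), and 8.02% of all genes had a lower one.

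The phenylalanyl enzyme is built of 2 kinds of subunit, and both fell. FARSA, the alpha subunit, went from 39.4, 41.6 and 37.1 to 24.5, 22.9 and 20.8 FPKM in WT (log2 change -0.77, SE 0.08, adjusted p = 1.3e-07). FARSB, the beta subunit, fell by 0.57 (SE 0.05). YARS, the tyrosyl enzyme, fell by 0.68 in WT, 0.84 in C14R and 0.74 in the deletion line. Smaller falls were those of TARS (-0.42), NARS (-0.33), SARS (-0.25), GARS (-0.24) and HARS (-0.17) in WT. The fall of HARS turned to a difference of 0.03 after rescaling without small RNA genes. GARS and SARS then also missed the threshold, at -0.03 and -0.04.

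AARS, WARS and CARS, the alanyl, tryptophanyl and cysteinyl enzymes, went the other way. AARS (chromosome 16, 70252295 to 70289543, minus strand) had 32.1, 31.5 and 31.9 FPKM on day 0 and 41.0, 42.8 and 43.1 on day 18 in WT. Its C14R libraries went from 29.7, 34.4 and 31.6 to 35.9, 39.5 and 38.7 FPKM, and its deletion libraries from 32.8, 32.0 and 30.3 to 42.3, 42.0 and 42.9. All day 18 libraries were above all day 0 libraries, within each line and across lines. The log2 change was 0.40 in WT (SE 0.05, adjusted p = 1.2e-06), 0.25 in C14R and 0.41 in deletion libraries.

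WARS (chromosome 14, 100333788 to 100376805, minus strand) had 30.1, 30.8 and 30.3 FPKM on day 0 and 42.6, 39.8 and 41.4 on day 18 in WT. Its log2 change was 0.43 in WT (SE 0.06, adjusted p = 8.4e-06), 0.29 in C14R and 0.34 in deletion libraries. CARS had 20.5, 20.2 and 17.8 FPKM and then 25.5, 24.4 and 24.8 in WT (log2 change 0.34, SE 0.07, adjusted p = 0.00051). In C14R its day 18 values of 18.2, 21.9 and 23.6 FPKM overlapped those of day 0, with the low value in the library that stood apart, and the change of 0.16 did not pass (adjusted p = 0.066). TARSL2, a second cytosolic threonyl enzyme that bears the ending of the mitochondrial symbols, had 9.76 ± 0.155 FPKM on day 0 and 10.3 ± 0.564 on day 18 in WT, with overlap.

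The median change of the mitochondrial enzymes was smaller. Of 17 members 10 fell and 1 rose in WT, 10 and 2 in C14R, and 10 and 1 in deletion libraries. Of all genes, 34.0% fell and 38.2% rose in WT, 35.0% and 37.9% in C14R, and 34.4% and 38.6% in deletion libraries. The 11 members called in WT were a smaller share than the 72.2% of all genes. Their class had a median log2 change of -0.25 in WT, -0.26 in C14R and -0.25 in the deletion line. Those of the 21 cytosolic enzymes were -0.43, -0.47 and -0.47. With small RNA genes left out and libraries rescaled, these medians became -0.07, -0.09 and -0.05 for the mitochondrial and -0.22, -0.28 and -0.26 for the cytosolic enzymes. Leaving out 1 library moved the WT medians between -0.34 and -0.19 and between -0.45 and -0.40. The added 1 FPKM shrinks changes of low genes, and many mitochondrial members are low. Relative to all genes, the WT medians were -0.27 and -0.45, and with 0.1 added instead -0.32 and -0.47. MARS2, the methionyl enzyme, had 4.48, 4.76 and 4.80 FPKM on day 0 and 2.57, 2.19 and 2.27 on day 18 in WT (log2 change -0.77, SE 0.10, adjusted p = 3.4e-06). SARS2, the seryl enzyme, fell by 0.62 (SE 0.09), and AARS2, the alanyl enzyme, by 0.57 (SE 0.06). Exons of SARS2 share 1492 bases, 46.2% of their length, with a read-through gene on the same strand, so its value is uncertain. EARS2, IARS2, YARS2, CARS2, HARS2 and TARS2 fell by 0.17 to 0.53 in WT. Of these, HARS2 and TARS2 turned to a difference of 0.03 each after rescaling without small RNA genes, where YARS2 and CARS2 missed the threshold. Without the 4 libraries rich in SNORD3A, HARS2 and YARS2 missed it in WT (limma, adjusted p = 0.062 and 0.053).

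RARS2, mitochondrial arginyl-tRNA synthetase (chromosome 6, 87514378 to 87590003, minus strand), rose most of all members. Its WT libraries had 34.3, 32.4 and 34.1 FPKM on day 0 and 47.6, 47.6 and 49.3 on day 18. In C14R it went from 33.5, 32.8 and 34.9 to 55.0, 49.4 and 48.7 FPKM, and in deletion libraries from 34.5, 33.1 and 36.4 to 45.3, 47.3 and 48.3. Every day 18 library was above every day 0 library. The log2 change was 0.51 in WT (SE 0.05, adjusted p = 5.1e-08), 0.58 in C14R and 0.43 in deletion libraries, and 79.4% of all genes had a lower change in WT. RARS2 moved from place 16 among the members on day 0 to place 7 on day 18 in WT. Place 7 is not resolved, since the libraries overlapped those of IARS2 and MARS. On day 18 RARS2 held place 5 in C14R and place 6 in deletion libraries. No exon of another gene overlaps it in the annotation.

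The remaining mitochondrial members did not pass the threshold in WT. PARS2, NARS2, LARS2, FARS2, WARS2 and VARS2 had log2 changes of 0.12, 0.10, -0.12, -0.08, -0.07 and -0.25, with standard errors of 0.06 to 0.11. The 95% interval of VARS2 was -0.49 to -0.0025 (adjusted p = 0.065). VARS2 shares 1858 exonic bases with GTF2H4 on the same strand. NARS2 was the highest of these 6, with 15.8 ± 1.96 FPKM on day 0 in WT, and the other 5 had means of 4.01 to 9.83. Within groups the median coefficient of variation of the members was 3.48% to 7.49%, and single members reached 28.1% (YARS2 in deletion libraries on day 18).

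The balance between compartments can be read inside each library, where the scaling of libraries cancels. Summed over 21 cytosolic enzymes, WT libraries had 1046 ± 16.1 FPKM on day 0 and 795.8 ± 17.4 on day 18 (SD, n = 3), 76.1% of the day 0 mean. The 17 mitochondrial enzymes had 266.6 ± 2.73 and 233.7 ± 6.76 FPKM, 87.7% of the day 0 mean. The cytosolic sum per mitochondrial sum was 3.92 ± 0.0206 on day 0 and 3.41 ± 0.0848 on day 18 in WT. In C14R it went from 3.95 ± 0.0188 to 3.32 ± 0.0724, and in deletion libraries from 3.95 ± 0.0248 to 3.25 ± 0.0221. Day 0 libraries lay between 3.91 and 3.98 and day 18 libraries between 3.23 and 3.50 over all lines, without overlap. Within the mitochondrial sum, RARS2 rose from a mean of 33.6 to 48.2 FPKM in WT. The shift of the ratio thus rests on this gene, in WT possibly for the larger part, and the ratio without it was not computed. The ratio is therefore no measure of the mitochondrial enzymes as a set. KARS and GARS, which serve both compartments, were counted in the cytosolic sum. Since FPKM are relative, an absolute loss of these RNAs per cell cannot be told apart from a gain of others.

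**Figure D3:**
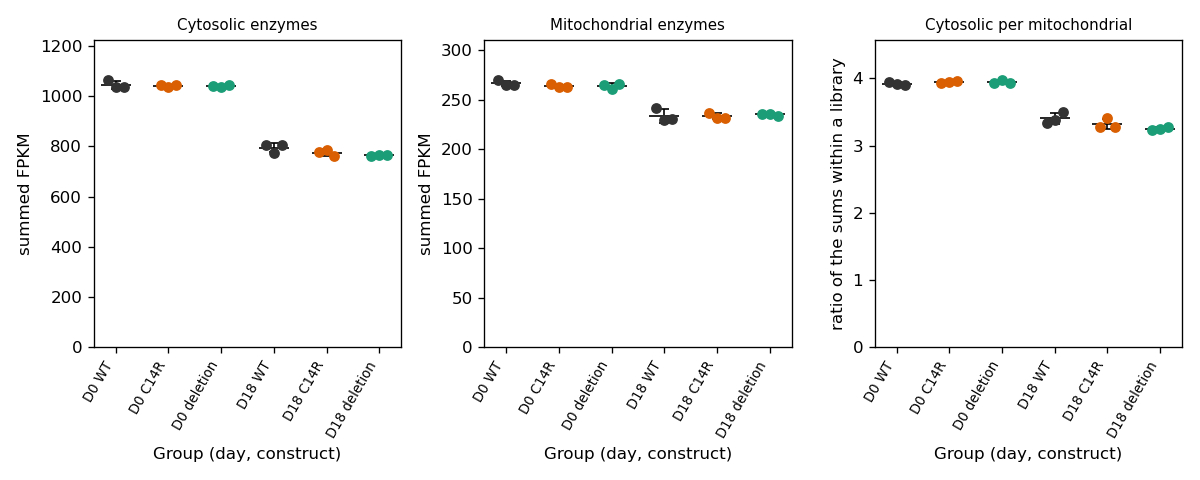
Summed FPKM of the 21 cytosolic and the 17 mitochondrial enzymes and the ratio of the sums in each library (points), with the mean and SD of 3 libraries (lines), by group. Both sums are lower on day 18, and the ratio goes from 3.91 to 3.98 on day 0 to 3.23 to 3.50 on day 18.

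Pairing enzymes for the same amino acid gave 18 pairs. In 17 of them the cytosolic gene was above the mitochondrial one in every library, and the exception was IARS and IARS2. From day 0 to day 18 the ratio fell without overlap of WT libraries in 10 pairs and rose in 5, and in all 3 lines it fell in 9 and rose in 4. No test was made on these ratios, and EPRS and FARS2 recur among the 18 pairs, so the pairs are not separate. Of single genes tested in WT, 36.0% had day 18 wholly below day 0 and 39.7% wholly above. No such share was computed for other pairs of genes, so the counts of pairs cannot be set against one. RARS and RARS2 moved in opposite directions, and their ratio went from 2.18 ± 0.0887 to 1.10 ± 0.0717 in WT. The leucyl pair went from 8.16 ± 0.597 to 4.96 ± 0.419, with the fall in the cytosolic gene. AARS rose while AARS2 fell, so the alanyl ratio went from 4.63 ± 0.113 to 9.82 ± 0.161. MARS and MARS2 went from 11.1 ± 0.806 to 20.3 ± 0.897, with a fall in the mitochondrial gene. The histidyl pair had a mean ratio of 1.68 on both days, with overlap.

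**Figure D4:**
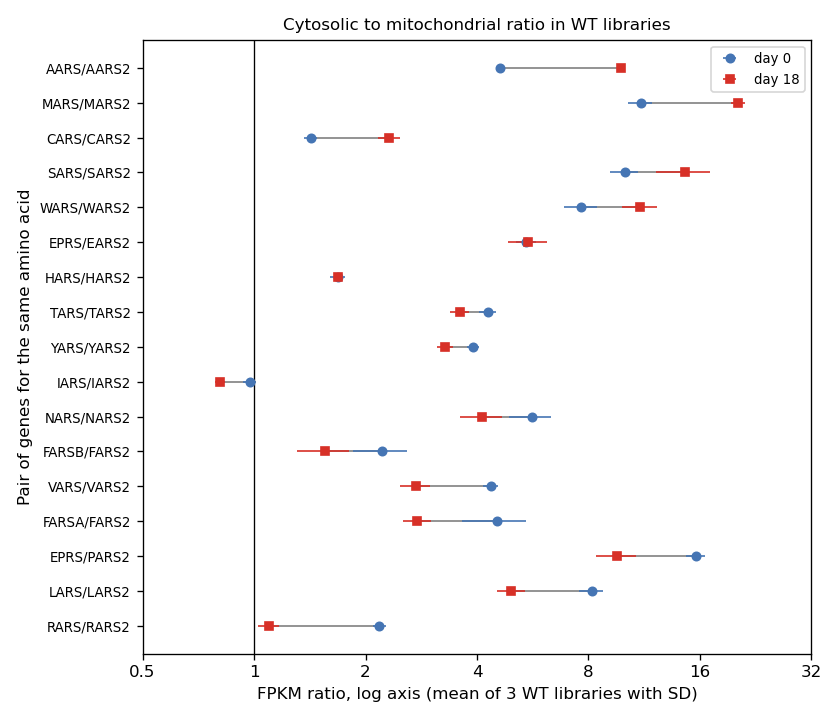
Ratio of cytosolic to mitochondrial FPKM for each of 17 pairs in WT libraries on day 0 (blue circles) and day 18 (red squares), mean and SD of 3 libraries on a log axis. Pairs are ordered by their change, from AARS with AARS2 (4.63 to 9.82) at the top to RARS with RARS2 (2.18 to 1.10) at the bottom.

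HARS and HARS2 lie head to head on chromosome 5, and their log2 changes in WT were -0.17 for both (SE 0.05 each). In C14R the changes were -0.17 for HARS and -0.23 for HARS2, and in deletion libraries -0.21 and -0.16. Between their RefSeq starts lie 84 bases, chr5:140691371-140691454 of GRCh38.p14, shown on the plus strand because this stretch lies before both starts. HARS is read leftward from it and HARS2 rightward, and 59.5% of its bases are G or C.
HARS to HARS2: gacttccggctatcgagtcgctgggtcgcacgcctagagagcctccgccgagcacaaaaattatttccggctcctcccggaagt
In GENCODE release 29 longer transcripts of both genes run past these starts and their exons share 437 bases, so that without strand their reads could be exchanged. HARS had 42.4, 40.0 and 38.4 FPKM on day 0 and 35.5, 35.1 and 36.2 on day 18 in WT. HARS2 had 25.6, 22.6 and 23.8 and then 21.4, 21.1 and 20.9. Day 18 was below day 0 in every library of both.

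Members known as ATF4 targets did not move as 1 group. Of the 12 (AARS, CARS, EPRS, GARS, IARS, LARS, MARS, NARS, SARS, TARS, WARS and YARS), 8 fell and 3 rose in WT, with a median log2 change of -0.29. The 9 cytosolic enzymes outside that list had 8 falls and a median of -0.57. Of all genes tested, 34.0% fell and 38.2% rose in WT. The 3 cytosolic members that rose in WT were all on the list, which holds 12 of the 21 cytosolic enzymes. ATF4 binds a composite element of the C/EBP and ATF kind that is often written TGATGCAA. RefSeq promoters of GRCh38.p14, each from 250 bases before to 50 after a start, were found for 33 of the 41 members. AARS2, DARS, LARS, TARSL2, VARS, VARS2 and YARS were among those with no entry.

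The letters TGATGCAA or TTGCATCA, the same element on either strand, stood in 6 of the 33 matched members (18.2%), against 1.08% of 27305 genes and 0.866% of all promoters in the table. All 6 were on the ATF4 list, of which 10 had a promoter. With 1 base left open, TGATGNAA or TTNCATCA, which includes those, 8 of 33 (24.2%) had it against 4.46% of genes and 3.62% of promoters. The additional members were GARS and YARS2. These windows are shown because holders of nearly the same letters went in both directions. Each is read 5′ to 3′ on the strand of its gene, with the element in capitals.
AARS: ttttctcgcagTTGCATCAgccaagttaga
CARS: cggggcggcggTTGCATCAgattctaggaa
IARS: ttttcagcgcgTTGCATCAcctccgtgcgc
MARS: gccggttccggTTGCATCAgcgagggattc
NARS: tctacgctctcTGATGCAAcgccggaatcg
TARS: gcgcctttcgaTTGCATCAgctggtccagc
GARS: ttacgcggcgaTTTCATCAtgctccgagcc
YARS2: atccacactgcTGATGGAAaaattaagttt
AARS and CARS, at chr16:70289675-70289704 and chr11:3057407-3057436 on the minus strand, rose by 0.40 and 0.34 in WT. IARS, at chr9:92293692-92293721 on the minus strand, fell by 0.68. NARS and TARS, at chr18:57621804-57621833 (minus) and chr5:33440956-33440985 (plus), fell by 0.33 and 0.42. MARS, at chr12:57488053-57488082 on the plus strand, had a change of -0.12 that did not pass. GARS, at chr7:30594834-30594863 on the plus strand, and YARS2, at chr12:32756076-32756105 on the minus strand, fell by 0.24 and 0.39. The element of AARS begins 187 bases before the start, those of CARS, IARS, MARS, NARS and TARS within 14 bases of it on either side. In GENCODE release 29 the windows of CARS, GARS, IARS, MARS, NARS and TARS lie wholly in exons annotated to the gene itself. That of AARS lies outside AARS and meets an exon of DDX19B on the opposite strand, and that of YARS2 lies outside any exon. A match of letters does not show a site in use.

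Other genes of the pathway were counted in the same way, where 34.0% of all genes fell and 38.2% rose in WT. Of 11 genes for cytosolic tRNA export, delivery and quality control, 10 fell and 1 rose in WT. EEF1B2 and EEF1D, exchange factors of the elongation factor that carries charged tRNA, fell by 1.69 and 1.50 (SE 0.04 and 0.09), and EEF1A2, the form of that elongation factor used by neurons and muscle, rose by 0.49 (SE 0.06, adjusted p = 9.3e-07). Of 12 genes for mitochondrial charging and elongation, 7 fell and 1 rose in WT, a smaller share called in all than the 72.2% of all genes. MRRF, a ribosome recycling factor, fell by 0.61, TUFM, the mitochondrial elongation factor, by 0.41 and MTRF1L, a release factor, rose by 0.40. Of 16 tested genes of the amino acid response, 8 fell and 4 rose, a share called close to that of all genes. DDIT4 and SHMT2 had log2 changes of -1.43 and -1.27, DDIT3 and ATF3 of 1.39 and 1.18, and ATF4 itself fell by 0.23 (adjusted p = 0.00093).

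Markers of cell state moved over the same interval. All 8 proliferation genes fell in WT, and their summed level went from 415 ± 6.51 to 146 ± 1.99 FPKM (SD, n = 3), with 407.3 to 419 on day 0 and 144 to 148 on day 18. Of 14 neuronal and sympathetic markers 11 rose and 2 fell, and the sum went from between 1581 and 1619 to between 2955 and 3052 FPKM, so the cells carried these markers on both days. Of 10 markers of glial, mesenchymal and blood cells, 4 could be tested. COL1A1, COL3A1 and ACTA2 fell and S100B rose, and the sum of the 10 went from between 262 and 277 to between 37.9 and 41.7 FPKM. PECAM1 stayed under 0.1 FPKM in all 18 libraries, being at 0 in 10, and PTPRC reached at most 0.166. The part of these shifts in the synthetase changes was not tested. In such bulk samples fewer cells of a kind and less RNA per cell cannot be told apart.

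Between constructs no synthetase gene passed the threshold. The count was 0 of 41 for C14R against WT on day 0 and on day 18, for deletion against WT at both days, for C14R against deletion at both days, and for both interactions with day. Over all genes tested, 0% and 0.0363% passed for C14R against WT on day 0 and day 18, 0.0290% and 0.0725% for deletion against WT, 0.0580% and 0.0290% for C14R against deletion, and 0% and 0.0145% for the C14R and deletion interactions. A p that misses the threshold does not show equal levels. Against WT on day 18 the members' differences ranged from -0.23 to 0.18 for C14R and from -0.24 to 0.21 for deletion, and the 95% intervals of all members together reached from -0.38 to 0.37 and from -0.45 to 0.37 on the log2 scale. At day 0 they reached from -0.35 to 0.35 for C14R and from -0.38 to 0.38 for deletion. Both variants were set against the same WT libraries.

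At day 18, 9 members had an unadjusted p under 0.05 for C14R against WT, 22.0% of the members, where 11.1% of all genes did. AARS, CARS, HARS2, TARS, WARS and YARS were on the lower side and AARS2, EARS2 and LARS on the higher. For deletion against WT the number was 8, 19.5%, against 11.4% of all genes, with DARS, EEF1E1, GARS, IARS, TARS and YARS lower and AARS2 and QARS higher. On day 0 the number was 1 for C14R, FARSB (all genes 2.81%), and 1 for deletion (all genes 6.22%). C14R against deletion had 1 member on day 0 (all genes 9.84%) and 6 on day 18 (11.2%). The C14R interaction had 3, AARS, EARS2 and TARS (all genes 5.73%), with a smallest adjusted p of 0.73. The deletion interaction had 3, AIMP2 and TARS among them (all genes 7.36%), with a smallest adjusted p of 0.61. C14R libraries on day 18 were wholly below WT for 5 members (all genes 5.64%) and wholly above for 3 (5.44%), and deletion libraries for 7 (8.53%) and 3 (10.4%). At day 0 these numbers were 1 (5.33%) and 1 (4.14%) for C14R, and 4 (9.28%) and 0 (8.68%) for deletion.

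YARS and TARS came nearest to the threshold, with an adjusted p of 0.18 each. YARS had 16.9, 18.6 and 19.1 FPKM in WT on day 18, 16.4, 16.6 and 14.5 in C14R, and 16.9, 17.0 and 16.1 in deletion libraries. All C14R libraries lay below WT (log2 difference -0.19, SE 0.06), while the deletion libraries overlapped WT (-0.12, SE 0.06, adjusted p = 0.42). TARS had 49.1, 50.8 and 51.9 FPKM in WT, 48.5, 47.6 and 42.1 in C14R, and 41.9, 45.3 and 45.0 in deletion libraries. Both variants lay below WT, by 0.14 for C14R (SE 0.05, adjusted p = 0.33) and 0.20 for deletion (SE 0.05, adjusted p = 0.18). With limma array weights, which give replicate 1 of C14R on day 18 a weight of 0.161, TARS and YARS passed for C14R against WT, and without replicate 2 of that group WARS passed. Without replicate 1 the count was again 0.

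**Figure D5:**
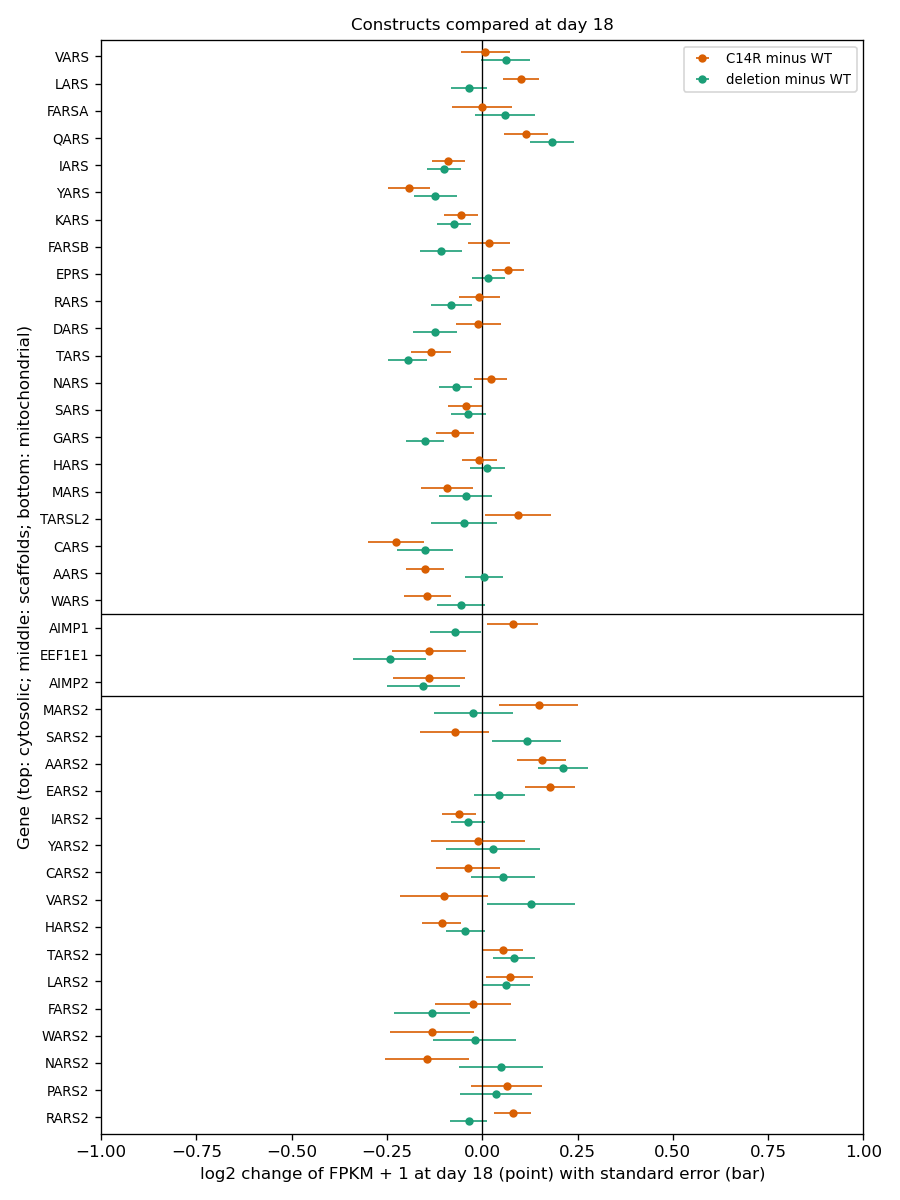
Difference of 40 synthetase genes between constructs on day 18 in log2(FPKM + 1), C14R minus WT in orange and deletion minus WT in green, with bars for the standard error of limma. The points lie between -0.24 and 0.21, close to 0 beside the day changes of -0.92 to 0.51 in WT.

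Among the genes of the amino acid response, DDIT3 alone passed for C14R against WT on day 18, with a log2 difference of -0.74 (SE 0.09, adjusted p = 0.0011). It had 24.8, 20.5 and 20.2 FPKM in WT, 11.5, 14.3 and 12.1 in C14R and 15.8, 18.2 and 16.4 in deletion libraries, and the deletion difference of -0.36 did not pass (adjusted p = 0.15). For each variant 14 of the 16 tested genes of this list were on the lower side. Of the 13785 genes tested, 6996 were lower for C14R and 6634 for deletion. No test was made on these numbers. Of the 12 members known as ATF4 targets, 9 were lower for C14R and 10 for deletion, with median differences of -0.09 and -0.06, and none passed. These counts are not independent, since both variants share the WT libraries, and those for C14R include the library that stood apart. The median over all genes was 0.00 in both comparisons. ZNHIT3 differed between these groups, with 1103 to 1193 FPKM in WT, 600 to 756 in C14R and 294 to 313 in deletion libraries on day 18, and the part of construct level in these values was not tested.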

How the data were processed

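RNA-seq was made from total RNA after depletion of ribosomal RNA, per the labels' protocols. The authors deposited FPKM, 1 value per gene symbol and library; the unit is that of the deposited table's name. The submitters' processing notes name hg38, TopHat2, STAR and Cufflinks 2.2.1 without roles. The annotation and use of strand are not given in the sources used here, and neither are read counts, so no counting interval is given. Relative depth came from the steps of low FPKM values.

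The members and lists were chosen with earlier results of these data known. Values were analysed as log2(FPKM + 1), which understates changes of low genes, in 1 fit of 6 group means over 18 libraries with limma 3.58.1 in R 4.3.3 (mean-variance trend). P-values were adjusted over 13785 genes with a mean FPKM of at least 1 by the Benjamini-Hochberg method, threshold 0.05. The fit was tested on simulated data. Motif shares used text search. Positions and exon overlaps came from GENCODE release 29 on GRCh38, promoters from RefSeq on GRCh38.p14.

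Named members were the 3 largest rises and falls in WT per class, those past the threshold between constructs, and the pairs; all members may be named, and list genes by the 2 largest rises and falls. ATF4 and list genes named otherwise were chosen after their values were seen. Alternatives tried: 3 other scalings, a pseudocount of 0.1, a filter at 5 FPKM or none, the replicate number as a block, no trend, array weights, only the libraries compared, a threshold of 0.01, a log2 change of at least 0.58, each library left out and, chosen after seeing the data, the 4 libraries rich in SNORD3A left out. Values of 1 member are not reported here and are not drawn by gene; counts and sums over members include it.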

Additional observations from a re-analysis of the deposited data

How the results depend on the processing

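FPKM hold no counts, so counting error is unknown, also for the members under about 5 FPKM. Same-numbered libraries did not deviate together (median correlation -0.01, from -0.36 to 0.17, with 6 of 45 pairs over 0.1), and the replicate block gave 28 falls and 4 rises in WT and changed no count by over 1.5 times. Of 434 recomputed counts of members 416 stayed within 1.5 times. That share overstates stability, since it includes the counts between constructs and for interactions. Those were 0 in the main fit, and stricter settings cannot move them. Most of the 18 counts that moved were rises or falls between days. In the text above, 28 falls and 4 rises in WT, 30 and 5 in C14R and 30 and 3 in deletion libraries were reported. Requiring a log2 change of at least 0.58 left 10 falls and 0 rises in WT, 13 and 1 in C14R, and 12 and 0 in deletion libraries. With small RNA genes left out and libraries rescaled there were 7 rises in WT and 8 in deletion libraries. Under it HARS turned to 0.0318, HARS2 to 0.0294 and TARS2 to 0.027, the only members called in WT whose sign turned under any alternative run. Array weights and a fit on only the libraries compared each gave 5 rises in deletion libraries. A threshold of 0.01 gave 3 rises in C14R, and leaving out the 4 libraries rich in SNORD3A gave 2. With 1 library left out, falls ranged from 28 to 30 in WT, 29 to 31 in C14R and 28 to 30 in deletion libraries, and rises stayed at 4 in WT, from 3 to 5 in C14R and from 3 to 5 in deletion libraries. Members called for C14R against WT at day 18 ranged from 0 to 1 with 1 library left out and were 2 with array weights. The causes were not tested. The motif share was 24.2% with 1 base open and 18.2% with TGATGCAA.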
